A study of Mus musculus with 2 samples.

Results

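The genes described here are 9 oncofetal genes, which are active in the embryo, largely silent in adult liver and often active again in liver cancer: Lin28a, Lin28b, Hmga1, Hmga2, Igf2bp1, Igf2bp2, Igf2bp3, Gpc3 and Tbx3. They were chosen by name, and their values are those of every probe set that the platform annotation assigns to exactly 1 gene of the list. This gave 23 probe sets for 7 of the 9 genes, among 18193 genes with such a probe set. No probe set is assigned to Hmga1 or Igf2bp2 in the annotation used, so these genes were not analysed here. The samples are whole livers of mouse embryos at E14.5, mid-gestation, with the strain given as NMRI/C57Bl6 for both. The 2 arrays hold RNA of wild-type liver and of Prox1 f/f;Foxa3Cre liver, in which a floxed Prox1 gene is deleted by a Cre recombinase under the control of Foxa3, a gene of gut and liver endoderm. The labels do not give the number of embryos per sample, nor the alleles of the sample labelled wild type beyond that word. With 1 array per genotype there was no replicate error and no test, and every difference is between these 2 arrays. The arrays also differed in sex-linked genes, as given below, which cannot be told apart from genotype.

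Lin28a and Lin28b are RNA-binding proteins that block the maturation of let-7 microRNAs, and let-7 in turn represses the mRNAs of Hmga2, the Igf2bp genes and the Lin28 genes themselves. Lin28 and its partners are therefore high in early progenitors and decline as let-7 accumulates. Hmga2 is a chromatin protein that binds AT-rich DNA, the Igf2bp proteins bind and stabilize mRNAs of growth genes such as Igf2, Gpc3 is a cell-surface heparan sulfate proteoglycan of hepatoblasts, and Tbx3 is a T-box transcription factor needed for the expansion of hepatoblasts and for their hepatocyte fate.

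The link between most of these genes is the seed of let-7, bases 2 to 8 of the mature microRNA, with which it pairs to its target mRNAs. The sequences below are from RefSeq (build GRCm38.p6), written 5′ to 3′ with the seed in capitals, and they show how little the family varies at that place.
mmu-let-7a-5p: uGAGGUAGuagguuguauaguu
mmu-let-7d-5p: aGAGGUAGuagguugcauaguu
mmu-let-7e-5p: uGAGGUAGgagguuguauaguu
mmu-let-7g-5p: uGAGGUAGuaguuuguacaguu
mmu-miR-98-5p: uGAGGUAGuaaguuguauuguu
mmu-let-7j: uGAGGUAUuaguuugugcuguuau
Of 11 mature let-7 and miR-98 names in the table, 10 carry the seed GAGGUAG, from 12 gene loci, and 1, let-7j, ends its seed in another base. The complement of the shared seed in a target mRNA reads CUACCUC. Mature microRNAs were not measured on these arrays, so the values below are of the Lin28 genes upstream of let-7 and of mRNAs downstream of it.

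Hmga2 was the one member at least 2-fold apart, and it was higher in the knockout liver. Igf2bp3 was higher by a smaller amount on most of its probe sets, Igf2bp1 and Gpc3 read nearly alike on both arrays, and Lin28a, Lin28b and Tbx3 were at or near the floor of the measurement. The floor was 112.6 signal units, set at the larger of both 50th percentiles, and a gene was represented by its brightest probe set. Of the 9 members, 6 were above the floor on at least 1 array and 5 on both. At the 2-fold mark, 1 member was higher, 0 were lower and 5 lay between. Over all 11397 genes above the floor on at least 1 array, 3.27% were at least 2-fold higher in the knockout and 2.13% at least 2-fold lower, so a single member at that size is a fact about Hmga2 and not about the group. In whole liver, more cells of a type and more RNA per cell cannot be told apart.

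**Figure D1:**
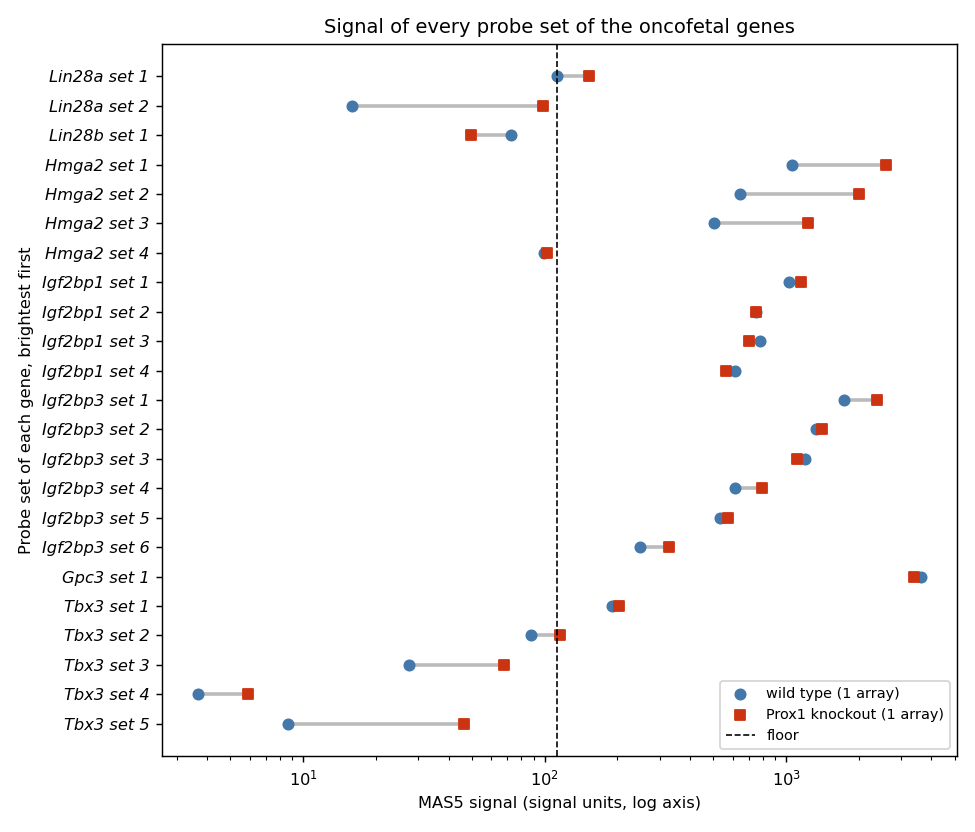
Signal of each of the 23 probe sets of the 7 genes with a probe set on a log axis in MAS5 signal units, with wild type as circles, knockout as squares, 1 array each, and the floor of 112.6 as a dashed line. The 3 bright probe sets of Hmga2 lie apart on the arrays, while those of Igf2bp1 and Gpc3 nearly coincide and those of Lin28b and most of Tbx3 lie left of the floor.

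Among the members that let-7 represses, Hmga2 differed most between the arrays. It stood at 1059.75 signal units in the wild-type liver against 2582 in the knockout liver by its brightest probe set. The log2 difference, knockout minus wild type, was 1.28, or 2.44-fold. A second probe set went from 642 to 2001, 3.12-fold higher, and another from 502 to 1236, 2.46-fold higher. All 3 therefore gave the same direction and a similar size, with log2 differences from 1.28 to 1.64. They were designed on the same source sequence, so they are not independent measurements. The fourth probe set, designed on another sequence, read 99.7 and 103, below the floor on both arrays, and gives no difference.

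The spread of Hmga2 across its probe sets was close to what other genes showed. Its 3 probe sets above the floor on both arrays spanned 0.36 on the log2 scale, and the median span over 1158 genes with 3 such probe sets was 0.37. Among 3392 genes with a mean signal between 1000 and 5000 and above the floor on both arrays, the middle 95% of log2 differences ran from -0.70 to 0.75, with a robust SD of 0.23. In that class 1.30% of genes reached 2-fold upward and 1.27% downward, and 21 genes, Hmga2 included, differed upward by at least as much. Over the whole range of signals it stood at place 121 of 10221 genes above the floor on both arrays, counted from the highest. The brightest probe set carries the suffix that marks probes shared with related transcripts, and the log2 difference was 1.64 without such probe sets.

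**Figure D2:**
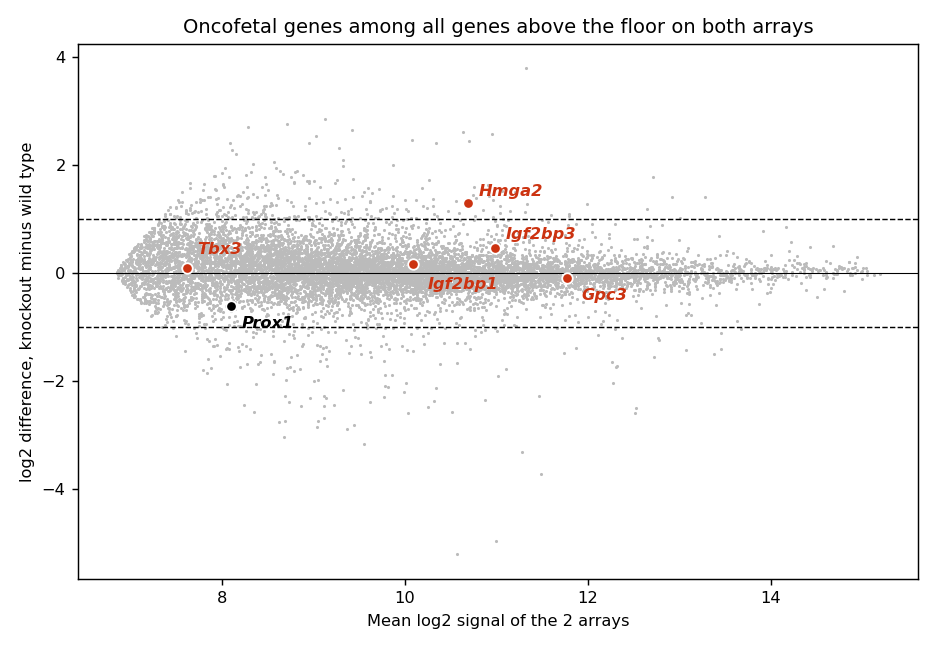
Log2 difference, knockout minus wild type, against the mean log2 signal of the 2 arrays for the 10221 genes above the floor on both (grey points), with the 5 oncofetal genes in red, Prox1 in black and the 2-fold marks dashed. Hmga2 lies above the upper mark at 1.28, outside most genes of its brightness, and the other 4 lie between the marks at -0.10 to 0.45.

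The 250 bases before the start of Hmga2 are shown because it was the member that differed. They are from RefSeq, chr10:120476470-120476719 of GRCm38.p6, minus strand, written 5′ to 3′ in the direction of the gene, with each match to TCTCTC in capitals.
Hmga2 promoter: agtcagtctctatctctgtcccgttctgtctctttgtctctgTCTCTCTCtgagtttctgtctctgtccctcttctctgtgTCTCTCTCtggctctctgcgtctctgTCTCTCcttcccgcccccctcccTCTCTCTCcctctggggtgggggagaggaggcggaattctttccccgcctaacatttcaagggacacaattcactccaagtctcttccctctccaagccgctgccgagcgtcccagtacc
Hmga2 has a pyrimidine-rich promoter. Of these bases, 70.8% are C or T, against a median of 50% over 32851 promoters, and 0.414% of promoters reach that share. The motif TCTCTC occurs 7 times on the strand shown and 0 times on the other, counting overlapping matches. At least 1 match on either strand stands in 20.2% of promoters, and 7 or more on the gene's strand in 0.0822%. The choice of this motif was not planned in advance, so its rarity elsewhere describes the Hmga2 promoter and is no test. The share in the same window was 68.0% for Igf2bp3, 64.0% for Gpc3, 44.8% for Lin28b and 37.2% for Lin28a, and the promoters of Igf2bp1 and Tbx3 were not analysed here. In that window, 0 matches on either strand were found for Igf2bp3 and Gpc3, Lin28a had 1 and Lin28b 2, both on the other strand. These are descriptions of the letters in the window and say nothing of what binds there.

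Upstream of let-7, Lin28a was barely measurable and Lin28b was not. Lin28a, the form best known from embryonic stem cells, stood at 112.1 in the wild-type liver against 153 in the knockout liver on its brighter probe set. The first of these lies just under the floor, so the knockout was at least 1.36-fold higher, a log2 bound of 0.44. The other Lin28a probe set read 15.9 and 98.6, both below the floor. Lin28b, the form known from fetal liver and fetal blood stem cells, read 72.7 and 49.5 on its only probe set, so these arrays give no difference for it. For genes above the floor on both arrays with a mean signal under 250, the robust SD of the log2 difference was 0.46 and the median 0.12, and the Lin28a bound is within that spread.

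Among the mRNA-binding proteins, Igf2bp3 leaned higher in the knockout and Igf2bp1 did not. The brightest Igf2bp3 probe set gave 1736 for the wild-type liver against 2373 for the knockout, which is 1.37-fold or 0.45 on the log2 scale. Its 6 probe sets were all above the floor on both arrays and ran from -0.12 to 0.45, with 5 higher and 1 lower. They split by the sequence they were designed on: the 3 from one source lay between 0.37 and 0.45, the pair from another at -0.12 and 0.08, and the remaining one at 0.11. The span of 0.57 equalled the median span over 79 genes with 6 such probe sets, 0.57. Without probe sets whose suffix marks shared probes, the brightest of the 3 left gave -0.12 and the others 0.11 and 0.40, so the direction for Igf2bp3 rests on which probe sets are read.

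Igf2bp1, the other member of its family that was measured, read 1026 and 1155 on its brightest probe set, a log2 difference of 0.17. Its other probe sets gave, wild type first, 749 against 754, 776 against 699 and 617 against 565. With 2 higher and 2 lower, its log2 differences ran from -0.15 to 0.17, and the median over the 4 was -0.06. Igf2, the fetal growth factor whose mRNA these proteins bind, was among the brightest transcripts and read 15440 and 16407, a log2 difference of 0.09, while its dimmer probe set read 412 and 346, or -0.25. For Igf2 the median over both was -0.08, so no direction can be given.

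Gpc3, the hepatoblast proteoglycan, gave 3629 in the wild-type liver against 3378 in the knockout by its only probe set. The log2 difference of -0.10 lies within the robust SD of 0.23 for genes of that brightness. Gpc3 is X-linked, and the arrays differed in sex-linked genes. Xist, which coats the silenced X in female cells, stood at 11467 in the wild-type sample against 366 in the knockout, and the Y-linked Eif2s3y at 0.866 against 1972. On these arrays this difference goes together with genotype, so the parts of each cannot be told apart for any gene, X-linked or not.

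Tbx3 was measured on 1 of 5 probe sets on both arrays, and there it was nearly equal. That probe set read 191 and 202, a log2 difference of 0.08, which turned to -0.01 under quantile normalization or lowess correction. A second read 87.5 and 116, just above the floor in the knockout. The other 3 never reached the floor, at 27.5 against 67.7, 8.64 against 46.5 and 3.68 against 5.89. The knockout value was the larger on each of the 5, and genes above the floor on both arrays with a mean signal under 250 had a median log2 difference of 0.12.

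Prox1 itself, the targeted gene, gave 340 against 222 by its brightest probe set, a log2 difference of -0.62, and all 3 of its probe sets were lower in the knockout. Whether they lie in the deleted exons was not checked here.

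Genes that make and use let-7 read much the same on both arrays. Of 25 measured genes of microRNA processing, out of 28 listed, 0 were 2-fold apart, 16 were above 0 and 9 below, and the median log2 difference was 0.02, beside 0.03 over all measured genes. Drosha, the nuclease that cuts the primary transcript, read 2472 and 3418, a log2 difference of 0.47, with a second probe set at 0.36. Dicer1, which cuts the hairpin, read 571 and 558, and its difference of -0.04 turned to 0.05 as the median over probe sets. Tut4, the uridylyltransferase that Lin28a recruits to the let-7 precursor, read 1674 and 1429 on its brightest probe set, but 3 of its 5 probe sets were higher in the knockout. Dis3l2, the nuclease that degrades the uridylated precursor, read 313 and 305. The farthest were Tut1, a relative of Tut4, at 177 and 298 (1.68-fold), and Prkra, a Dicer partner, at 499 and 762 (1.53-fold), while Msi2, an RNA-binding protein, read 272 and 363 with 2 of 4 measured probe sets lower.

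Genes listed as let-7 targets from general knowledge were spread around a median near that of all genes. How well each is established as a target was not checked here. Of 38 measured out of 48 listed, 2 were at least 2-fold higher, 0 at least 2-fold lower and 36 between. The median was 0.10, or 0.08 over the 34 that are not among the 9 oncofetal genes, of which 22 were above 0. Over all measured genes 53.8% were above 0. The second gene at that size beside Hmga2 was Dusp9, a MAP kinase phosphatase and also X-linked, which read 1093 and 3373 on its brightest probe set, 3.09-fold higher, and 1.63 to 2.59 on the log2 scale over its 3 probe sets. Tgfbr1, the type I TGF-beta receptor, followed at 1041 and 1758 (1.69-fold), with all 3 probe sets higher. At the lower end was the insulin receptor Insr, at 1068 and 677, 1.58-fold lower on its only measured probe set.

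Of the other let-7 targets, 5 that are often cited are given here, and some genes of the list lay farther from 0 than these, such as Igf1r (0.57) and Irs2 (-0.55), which were added after their values were seen. Myc, the proliferation factor, read 1994 and 2170, a log2 difference of 0.12. Mycn read 476 and 589 (0.31), and Arid3a, a DNA-binding factor of fetal blood cells, 479 and 544 (0.19). Arid3b, its relative, read 333 and 292 (-0.19). Trim71, a let-7 target and the mammalian homologue of worm lin-41, read 308 and 365 (0.24).

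**Figure D3:**
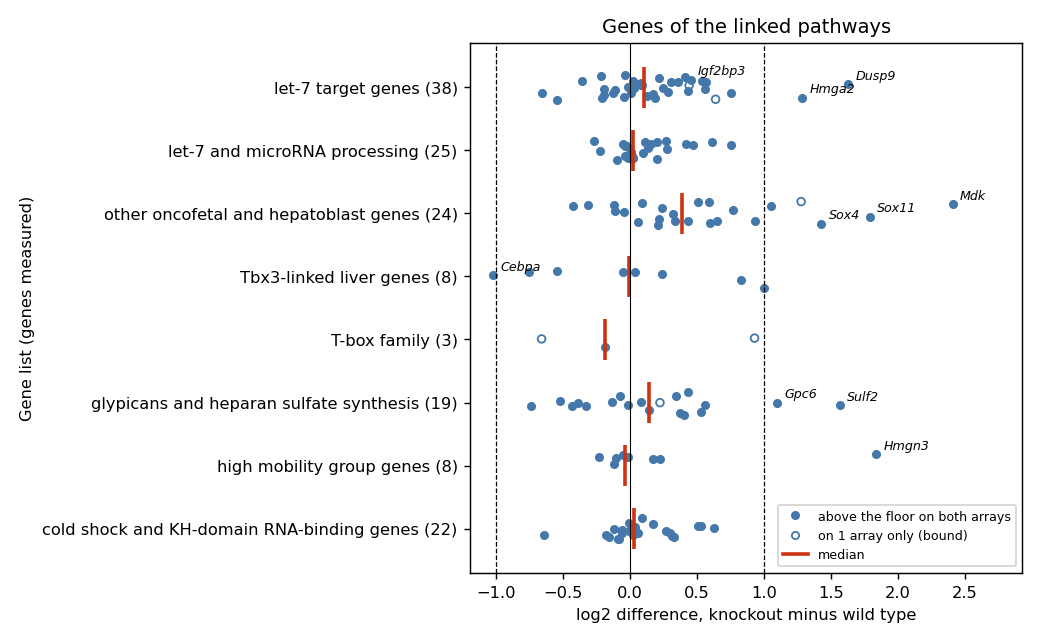
Log2 difference, knockout minus wild type, of each measured gene in 8 linked lists, with bounds as open circles, list medians as red bars and the 2-fold marks dashed; the number of genes measured stands after each list name. Most let-7 targets and all processing genes lie between the marks, with Hmga2 and Dusp9 beyond the upper one, and the other oncofetal and hepatoblast genes have the median farthest above 0, at 0.38.

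Most genes on the list of other oncofetal and hepatoblast genes read higher in the knockout. Of 24 measured genes, 19 read higher, 5 of them by at least 2-fold, and 0 were at least 2-fold lower, and the median was 0.38. Over all measured genes, 3.27% were at least 2-fold higher and 53.8% were above 0. The list was written with earlier results of these data known, so these counts are no test of it. Hepatoblast and hepatocyte markers, given below, leaned the other way, with a median of -0.35 and 8 of 9 below 0. Mdk, the growth factor midkine, read 563 and 2986 and was 5.30-fold higher. Sox11, a progenitor transcription factor, read 130 and 450 (3.46-fold), and its other 5 probe sets, on the floor in wild type, gave log2 bounds from 0.09 to 0.85. Sox4, its relative, read 1181 and 3176 (2.69-fold), with 5 measured probe sets all higher, and the adhesion protein Epcam was at least 2.42-fold higher. The remaining one was Spint2, a serine protease inhibitor, at 552 and 1141 (2.07-fold). As the median over probe sets, with those below the floor on both arrays counted as 0, Spint2 stayed past 2-fold. Mdk has only 1 probe set, so this could not change it. Sox11 came to 0.68, Sox4 to 0.86 and Epcam to 0.64. Sox4 and Epcam have such unmeasured probe sets, which pull their medians toward 0. The bound for Epcam was 0.52 with the floor at the 60th percentile.

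Other well-known fetal genes were closer on the arrays. Afp, the major fetal plasma protein, read 36369 and 35212, a log2 difference of -0.05, and its other bright probe sets lay at -0.01 and 0.00. A far dimmer Afp probe set read 109 and 289, a bound of 1.36, and the last was below the floor on both arrays. Dlk1, a hepatoblast surface protein, read 10361 and 13090, a log2 difference of 0.34. Sall4, an oncofetal zinc-finger factor, read 404 and 325 (-0.31), with both probe sets lower. H19 was not analysed here, since its probe set carries more than 1 gene symbol.

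By size of difference, the genes nearest to Hmga2 among 133 genes of the linked lists above the floor on both arrays were Sox4 (1.43), Gpc6 (1.10) and Spint2 (1.05). This compares 1 number per gene from 2 arrays and is no measure of a shared pattern.

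Relatives of the members did not follow one direction. Among 8 measured high mobility group genes, Hmgn3, a nucleosome-binding protein, read 215 and 768 (3.57-fold higher, the other probe set at a bound of 1.67 on the log2 scale). The other 7 lay between -0.23 for Hmgxb4 and 0.23 for Hmg20b. The abundant chromatin proteins Hmgb2 (10541 and 10155) and Hmgn1 (19224 and 21626) differed by -0.05, which turned to 0.02 under quantile normalization, and 0.17. The list median was -0.04.

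Among 19 measured glypican and heparan sulfate genes, 2 were at least 2-fold higher and 0 lower, with a median of 0.14. Sulf2, an extracellular sulfatase that trims heparan sulfate, read 450 and 1331 (2.95-fold) on its brightest probe set and 543 and 756 on another. Gpc6, a relative of Gpc3, read 224 and 479 (2.14-fold), with all 5 probe sets higher. Taken as medians over their probe sets, both came under 2-fold, at 0.89 for Sulf2 and 0.73 for Gpc6, and Sulf2 was at 0.48 without probe sets of shared probes. Gpc4, another X-linked glypican, read 309 and 446 (0.53), Hs6st2, a heparan sulfate sulfotransferase, 209 and 307 (0.56), and Gpc1 was on the floor in wild type with a bound of 0.22. Notum, a Wnt-inactivating enzyme that needs glypicans, read 203 and 121 (-0.74).

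RNA-binding genes with cold shock or KH domains, the domains of Lin28 and Igf2bp proteins, gave 0 of 22 measured genes at 2-fold and a median of 0.03. The farthest were Csdc2 (292 and 187, -0.64), Khdrbs3 (142 and 219, 0.63) and Pcbp3 (245 and 354, 0.53). Pcbp4 read 382 and 543 (0.51), but its other measured probe sets were both lower and their median over all was -0.09.

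T-box genes other than Tbx3 were mostly below the floor. Of 14 with a probe set, 3 were measured: Tbx20 (75.0 and 214, a bound of 0.93), Tbx6 (178 and 82.4, a bound of -0.66) and Mga (783 and 687, -0.19), with a median of -0.19. Tbx2, the closest relative of Tbx3, read 47.9 and 72.4, both below the floor.

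Liver genes linked to Tbx3 lay on both sides of 0. Of 8 measured, 1 was 2-fold lower, 0 were 2-fold higher and 4 were on each side, with a median of -0.01. Cebpa, a hepatocyte factor reduced when Tbx3 is lost, read 1174 and 578 (2.03-fold lower), and Hnf4a 2279.9 and 1562 (-0.55). The cell cycle inhibitors went opposite ways, with Cdkn1a (p21) at 163 and 326 (1.998-fold higher) and Cdkn1b (p27) at 1485 and 882 (1.68-fold lower). The other Cdkn1a probe set, on the floor in wild type, gave a bound of 0.05. As medians over probe sets, Cdkn1a came to 0.52, which takes in that bound. Cdkn1b came to -0.38, but only because its unmeasured second probe set was counted as 0. Foxa2, an endoderm factor, read 275 and 488 (0.83). Cdkn2a, the locus that Tbx3 represses in hepatoblasts, read 7.60 and 13.7, and Onecut1, a biliary and hepatic factor, 77.7 and 66.6, all below the floor.

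Markers of the cell types in fetal liver differed between the arrays beside these readings. All 12 stellate and mesenchymal markers were above the floor on both arrays, 7 were at least 2-fold higher in the knockout and 0 at least 2-fold lower, the median was 1.41 and the summed signal went from 15376 to 32487. Col1a1, the type I collagen chain, read 323 and 1278. Of 8 granulocyte markers, 4 were at least 2-fold higher and all were above 0, with a median of 1.01 and a summed signal of 34241 and 71106. Both lists differed in the same direction as Hmga2, and so did other lists given below, such as the cholangiocyte markers. The part of any cell type in the Hmga2 reading was not tested.

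Blood progenitor and proliferation markers were closer. Of 9 measured blood stem and progenitor markers, 0 were 2-fold apart and 8 were above 0. Their median was 0.20, with sums of 4628 and 5623, and the highest was Cd34 at 0.89. Kit, their defining receptor, read 612 and 624 on its brightest probe set and 173 and 249 on the other. Flt3 and Hoxa9 were below the floor on both arrays. Cell cycle genes gave 0 of 9 at 2-fold, a median of -0.03 and sums of 95381 and 93808. Hepatoblast and hepatocyte markers were all above the floor, so the label of the tissue is borne by the data. In the knockout 3 of these 9 were at least 2-fold lower, 8 were below 0, and the median was -0.35, with sums of 194491 and 162918.

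**Figure D4:**
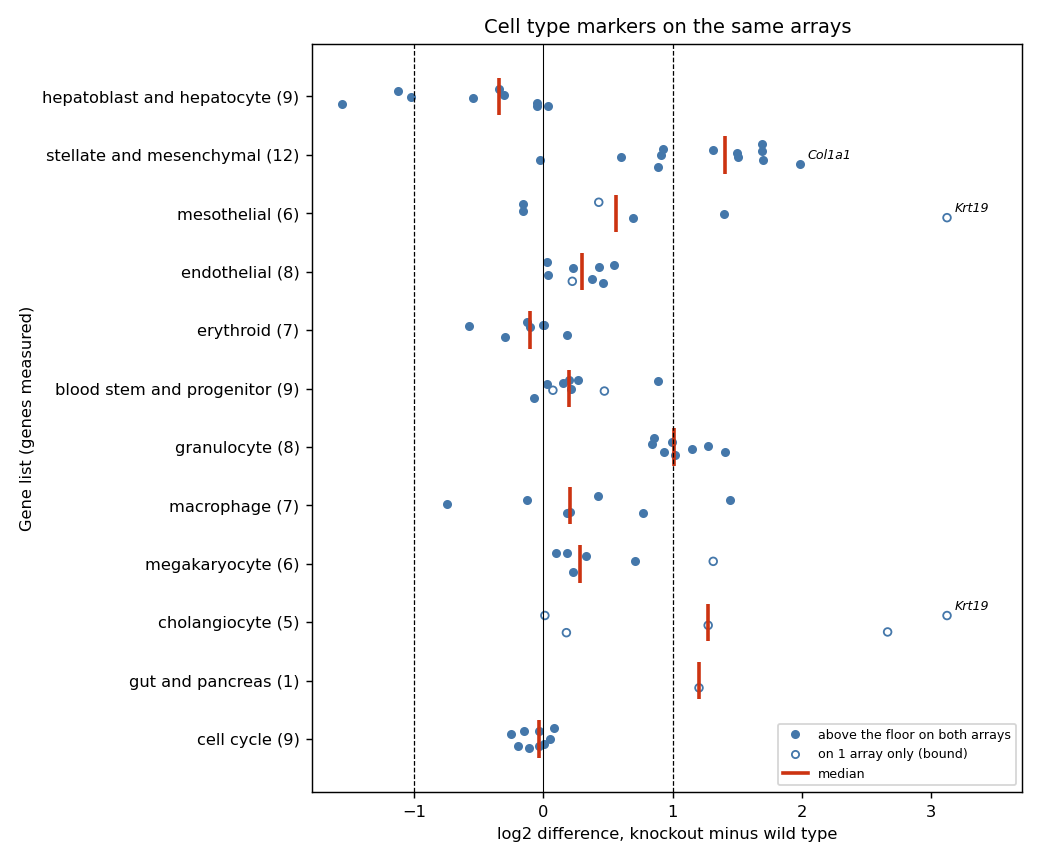
Log2 difference, knockout minus wild type, of each measured marker of 12 cell type or state lists, with bounds as open circles, medians as red bars and the 2-fold marks dashed. The stellate and mesenchymal (median 1.41), granulocyte (1.01) and cholangiocyte (1.28, all bounds) lists lie highest among lists with more than 1 measured gene, and cell cycle genes lie around 0.

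The remaining lists lay between. The median was 0.56 for 6 mesothelial markers (2 at least 2-fold higher; sums of 1765 and 3468; Msln below the floor), 0.30 for 8 endothelial (0 at 2-fold), 0.28 for 6 megakaryocyte (1 higher), 0.20 for 7 macrophage (1 higher; Vsig4 below the floor) and -0.10 for 7 erythroid markers (0 at 2-fold). Of 5 measured cholangiocyte markers, 3 were at least 2-fold higher, and all 5 were on the floor in wild type. Their sums of 395 and 2277 also take in Onecut1, below the floor on both arrays, as the mesothelial sums take in Msln. Gut and pancreas markers were below the floor on both arrays apart from Vil1, at 20.6 and 260.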

How the data were processed

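Total RNA from 1 wild-type and 1 Prox1 f/f;Foxa3Cre liver sample was labelled with biotin by the Affymetrix one-cycle assay, per the labels' protocols. The deposited intensity values are MAS5 signals on a linear scale, per the submitters' processing notes; no MAS5 version was found in these notes. The 2% trimmed mean was 500.0 on both arrays, so the values were used as deposited. MAS5 subtracts mismatch signal, so dim probe sets scatter widely.

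Of 45101 probe sets, 64 controls were left out, and 34945 of the rest carried 1 gene symbol, 932 several and 9160 none. Gene identifiers of 34741 matched the RefSeq table (GRCm38.p6). Values under a floor of 112.6, the higher 50th percentile, were raised to it before log2. Where a gene had several probe sets, the one with the largest mean of both log2 signals stood for it. A single array at the floor leaves only a bound. Suffixes s and x in a probe set's name mark probes that can take up related transcripts. A robust SD is the scaled median absolute deviation across genes, not a replicate error. The number of arrays limits the precision: there were no replicates, so no p-value is given and genes were counted at 2-fold.

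The members and all lists were chosen with earlier results of these data known. Named genes were the members, Prox1, Xist, Eif2s3y, a fixed set of linked genes, up to 4 genes per linked list with the largest absolute difference, and the 3 nearest to the leading member. The alternatives were other floors, sizes, probe set rules and scalings. The counting was tested on simulated data. Python 3.11.15, numpy 2.4.6, pandas 2.3.3, statsmodels 0.14.6 and matplotlib 3.10.9 were used.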

Additional observations from a re-analysis of the deposited data

How the results depend on the processing

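Hmga2 stayed at least 2-fold higher under each of the 7 alternatives of floor, scaling and probe set choice, from 1.28 to 1.64 on the log2 scale. The floors could not change its value, which was 1.28 at each of them, since its signals lay far above them. Its probe sets above the floor share a source sequence, so the choice among them is a limited check. With the mark at 3-fold, 0 members passed. Of the members, 0 were at least 2-fold lower under any alternative. Igf2bp3 ranged from -0.12 to 0.48, Igf2bp1 from -0.06 to 0.17, Tbx3 from -0.01 to 0.08 and Gpc3 from -0.10 to -0.06. Lin28a, where measured, ranged from 0.31 to 0.45. Its median over probe sets came to 0.22, with its unmeasured probe set counted as 0. Leaving out probe sets of suffix s or x was added after seeing the data.

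Counts of all genes, 373 higher and 243 lower, came to 789 and 414 when the floor was lowered to the 30th percentile, to 2362 and 1468 when it was dropped, to 1125 and 594 at 1.5-fold and to 99 and 102 at 3-fold. The median over probe sets, in which unmeasured ones count as 0, gave 239 higher. The glypican and heparan sulfate median of 0.14 became 0.34 with the floor at the 30th percentile, 0.36 with no floor and 0 as the median over probe sets. The T-box median of -0.19, over few genes, became -0.0083 with the floor at the 60th percentile, 0.20 with no floor and -0.040 over probe sets. The other oncofetal and hepatoblast median of 0.38 became 0.26 over probe sets. Among dim relatives, Tbx20 came to 1.51 and Gpc1 to 1.25 with the floor at the 30th percentile. The cause was not tested, beyond the number of genes that each floor admits.

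No paired analysis was possible because each genotype has 1 array. Signals near or below the floor, as for both Lin28 genes and Tbx3, give bounds or no difference.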

Other observations

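Mir99ahg, a long noncoding RNA whose locus holds a let-7c gene, was looked up after the other values were seen. One of its 2 probe sets gave 86.8 in the wild-type liver against 164 in the knockout, and the other 80.8 against 117. Both were on the floor in wild type, so the knockout gives log2 bounds of 0.55 and 0.06, and neither reaches 2-fold. The reading is of the long transcript and not of mature let-7.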
